A study of Mus musculus with 6 samples.

Results

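The cadherin superfamily was followed in organoids grown from mouse cochlear progenitor cells, a culture model of the developing inner ear in which aggregates of wild-type progenitors are embedded in hydrogel. Cadherins are calcium-dependent adhesion proteins with repeated extracellular domains. Classical cadherins hold cells together at adherens junctions and bind catenins, which tie them to actin, type I members such as E-cadherin (Cdh1) giving firm adhesion in epithelia. Protocadherins give weaker contacts and cell-surface identity, the clustered alpha, beta and gamma genes being best known from neurons. The large cadherins Fat, Dachsous (Dchs) and Celsr orient cells within the plane of a tissue, a property that in the cochlea lines up the hair bundles, and calsyntenins (Clstn) are membrane cadherins of vesicle traffic and synapses.

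The members were all genes of the deposited table whose symbol names a numbered cadherin, a protocadherin, Celsr1 to Celsr3, Fat1 to Fat4, Dchs1, Dchs2 or Clstn1 to Clstn3, with no minimum level. This gave 86 of the 15016 genes in the table, namely 5 type I classical cadherins, 10 type II classical cadherins, 2 other cadherins, 45 clustered protocadherins, 12 non-clustered protocadherins, 9 planar polarity cadherins and 3 calsyntenins. RNA was sequenced from 3 libraries of organoids in stiff gels and 3 of organoids in soft gels. The gels were GelMA-HA-RGD hybrids, a modified gelatin and hyaluronan network with an integrin-binding peptide. All 6 libraries had the wild-type genotype and shared an expansion of 8 to 10 days with EGF, bFGF, IGF, CHIR99021, valproic acid, a vitamin C derivative and an inhibitor of TGF-beta receptor kinase, followed by a differentiation medium with 3 μM CHIR99021, an inhibitor of the kinase GSK3, and 5 μM LY411575, a gamma-secretase inhibitor. The gels differed from the differentiation stage on, but no stiffness value and no culture time in the gels is stated in the labels. Whether libraries of a gel came from separate cultures or animals is not stated, so the p-values speak for the spread among these 6 libraries, possibly a technical one.

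Depth was 16108470 to 17899391 reads per library over the listed genes, and the members took 0.240% to 0.276% of them. Reads are whole numbers rebuilt from the deposited values. FPKM divides the fragments of a gene by its length and by the depth of the library, so levels of different genes can be compared on this scale. Soft replicate 1 was nearest of the soft libraries to the stiff ones: on the first principal component of the log2 values it lay at 1.94, against 16.1 and 18.9 for soft replicates 2 and 3 and -7.89 to -17.3 for the stiff libraries. Hair cell markers were sparse, with a summed level of 2.27 to 2.57 FPKM in stiff and 2.09 to 2.31 FPKM in soft gels over the 4 of 7 listed markers. Epithelial markers (8 of 8 listed) summed to 1113 to 1256 FPKM in stiff and 1061 to 1130 FPKM in soft gels. Markers of supporting and prosensory cells, all 7 listed, summed to 151 to 189 FPKM in stiff and 64.7 to 99.5 FPKM in soft gels, and 5 of 5 tested rose (limma). Over the whole table limma called 3.13% of the tested genes higher and 2.68% lower. Of the tested markers of other cells, 2 of 8 epithelial and 2 of 4 glial genes rose, 1 epithelial and 1 of 4 endothelial genes fell, and 0 of 1 neuronal and 0 of 1 hair cell genes were called. The part of these shifts in the cadherin values was not tested.

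In stiff gels Cdh11 was higher and Cdh6 was lower, both type II classical cadherins, and no other member passed the test. A gene was tested when its mean reached 1 FPKM in either gel, and the call was an adjusted p under 0.05 (limma on log2(FPKM + 1), Benjamini-Hochberg over all tested genes). Of the 86 members 42 were tested, 5 of which reached the minimum in 1 gel only. Of the 42, 1 was called higher and 1 lower, or 2.38% each, against 3.13% of all 11780 tested genes called higher and 2.68% called lower. The share of members called was thus close to that of the table as a whole. At an unadjusted p under 0.05 limma had 3 members higher and 3 lower, against 21.7% of all tested genes in either direction. The median log2 fold change of the tested members was -0.01, beside 0.03 over all tested genes.

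By level, Clstn1 and Cdh1 led the superfamily. Averaged over the 6 libraries Clstn1 had 77.4 FPKM and Cdh1 60.0 FPKM, with overlapping ranges over the libraries. Fat1 (24.9 FPKM), Pcdhgc3 (21.5), Cdh6 (17.6), Cdh3 (15.8), Dchs1 (15.4), Cdh11 (12.4), Celsr1 (11.5), Cdh2 (11.5), Clstn2 (11.3) and Pcdh18 (10.9) followed, each overlapping its neighbour in range. All 6 values of Cdh1 lay above all 6 of Fat1, and those of Pcdh18 lay above those of Cdh24 (8.53 FPKM), the next gene in order. The 5 most abundant members of each library held 52.5% to 54.2% of the superfamily's summed FPKM in stiff gels and 54.2% to 56.5% in soft gels. At the other end, 46 members averaged under 1 FPKM.

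**Figure D1:**
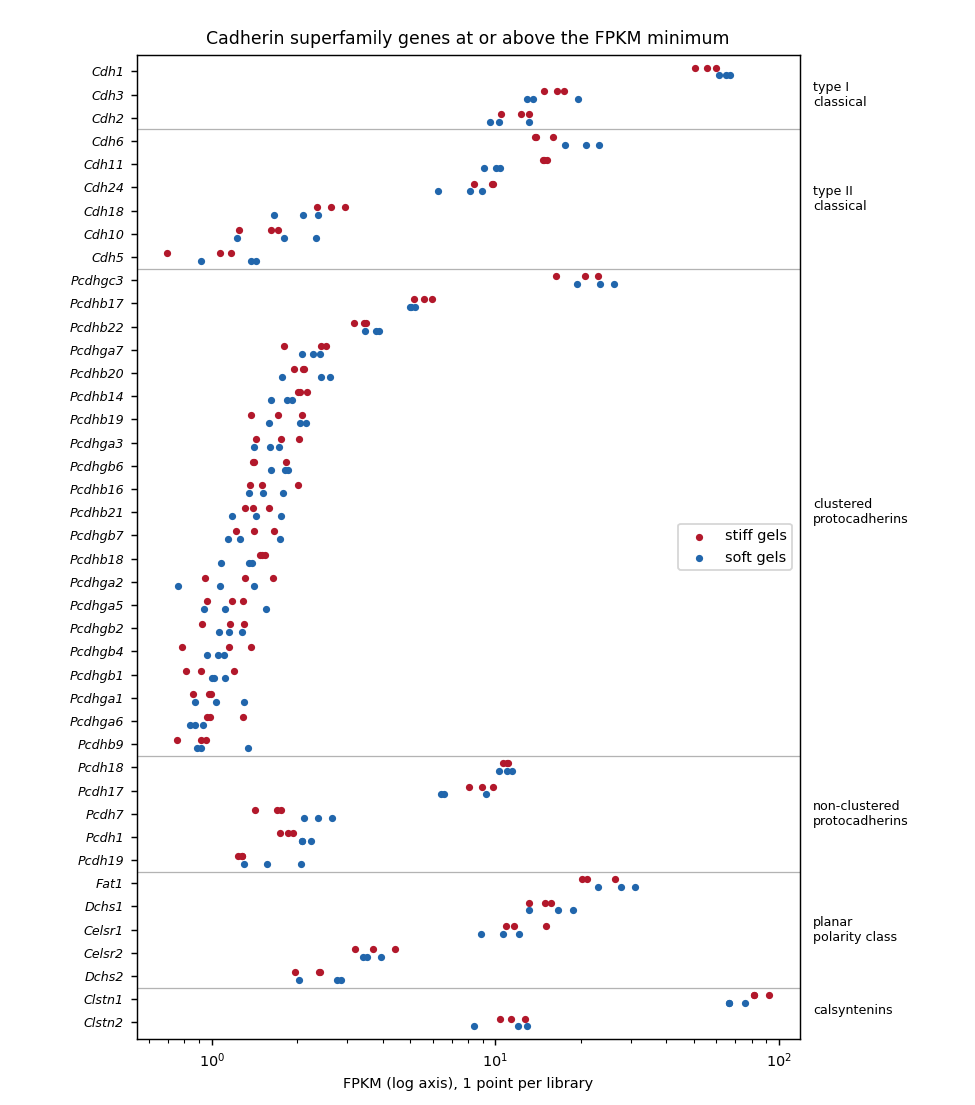
FPKM on a log axis for the 42 tested members, 1 point per library, with stiff gels drawn above soft gels in each row and genes grouped by class. Clstn1 and Cdh1 lie highest, the points of both gels overlap in most rows, and Cdh11 and Cdh6 are among the rows where they do not.

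Promoter sequence is shown for the members that the comparisons below turn on and for which the RefSeq table has an entry (28 of the 86 members had one), so that the genes can be located and read: Cdh6 and Pcdh7, lower in stiff gels by at least 1 of the tests used, and Clstn1 and Fat4, higher by at least 1. Each is the 250 bases before a RefSeq transcript start, 5′ to 3′ on the gene's strand, build GRCm38.p6, and that start lies 1357 to 2732 bases inside the outermost annotated end of the gene. Capitals mark matches on either strand to the GC box GGGCGG or the CCAAT box, read as CCAAT; matches that overlap each other are merged.
Cdh6 (chr15:13173676-13173925, minus strand): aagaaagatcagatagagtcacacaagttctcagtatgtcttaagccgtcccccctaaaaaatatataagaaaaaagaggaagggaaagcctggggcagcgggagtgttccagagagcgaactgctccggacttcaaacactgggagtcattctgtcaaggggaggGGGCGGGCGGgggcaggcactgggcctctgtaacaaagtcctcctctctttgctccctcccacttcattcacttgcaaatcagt
Pcdh7 (chr5:57717831-57718080, plus strand): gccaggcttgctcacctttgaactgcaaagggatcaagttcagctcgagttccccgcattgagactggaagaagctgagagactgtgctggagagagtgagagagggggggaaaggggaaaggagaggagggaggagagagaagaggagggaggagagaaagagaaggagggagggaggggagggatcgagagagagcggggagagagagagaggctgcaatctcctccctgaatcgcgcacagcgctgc
Clstn1 (chr4:149586218-149586467, plus strand): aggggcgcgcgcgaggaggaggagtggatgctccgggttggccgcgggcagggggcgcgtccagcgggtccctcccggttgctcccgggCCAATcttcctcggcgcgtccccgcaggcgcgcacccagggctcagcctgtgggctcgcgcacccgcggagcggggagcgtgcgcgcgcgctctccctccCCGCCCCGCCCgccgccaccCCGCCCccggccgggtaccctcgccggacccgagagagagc
Fat4 (chr3:38886690-38886939, plus strand): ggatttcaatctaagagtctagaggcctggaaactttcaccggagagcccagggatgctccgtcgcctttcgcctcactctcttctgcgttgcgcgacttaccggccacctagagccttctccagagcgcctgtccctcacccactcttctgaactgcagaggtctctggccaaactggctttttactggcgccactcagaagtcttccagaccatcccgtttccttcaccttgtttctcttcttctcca
Cdh6 held 2 GC boxes and Clstn1 held 3 GC boxes and 1 CCAAT box, while Pcdh7 and Fat4 held 0 of either. Among the 32851 windows of the same length in the table, 32.7% had a GC box and 33.8% a CCAAT box. The letters GGAATG, bound by TEAD factors, and the E-box CACCTG, bound by the Snail and Zeb repressors, were in 0 of the 4 windows and in 12.6% and 17.2% of all windows. The Clstn1 window had a GC content of 80.0%, against 51.2% to 58.4% in the other 3. These are matches of letters in 1 window per gene, and binding was not measured.

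Among the type II classical cadherins, Cdh11 rose. Cdh11 (OB-cadherin) is known from osteoblasts and mesenchyme and lies on chromosome 8 (102632095 to 102785493; all positions are in GRCm38). It stood at 15.2, 14.8 and 14.7 FPKM in stiff gels, against 10.0, 10.3 and 9.15 FPKM in soft gels. The lowest stiff value lay above the highest soft value by more than the spread within either gel. The means were 14.9 ± 0.252 FPKM in stiff and 9.83 ± 0.616 FPKM in soft gels (SD, n = 3 each), with a log2 fold change that limma put at 0.56 ± 0.07 (SE; adjusted p = 0.00625). Cdh11 was called whichever library was left out (limma adjusted p from 0.00166 to 0.0422), and the authors' deposited table gives it a log2 fold change of 0.57 (q = 2.76e-08). Mesenchyme markers, 7 of 8 listed, summed to 62.3 to 86.9 FPKM in stiff and 82.2 to 135 FPKM in soft gels. Limma called 0 of 5 tested, with 1 at an unadjusted p under 0.05. Over all tested genes these shares were 5.81% and 21.7%. Col1a1 and Col1a2 were under 1 FPKM in every library. By limma-voom without the minimum Col3a1 (log2 fold change -1.05, adjusted p = 0.0396) and Col1a2 (-2.02, 0.00773) were lower in stiff gels. Col3a1 overlapped between the gels and was not called by limma (adjusted p = 0.0740) or in the authors' deposited table (q = 0.0606). The other tested markers, none of them called, had limma log2 fold changes of 0.18 (Pdgfra), -0.02 (Prrx1), -0.11 (Twist1) and -0.30 (Pdgfrb). Col1a2 was also lower by limma without the minimum (adjusted p = 0.0144), as it is in the authors' deposited table (-2.05, q = 5.24e-05). The part of mesenchymal RNA in the level of Cdh11 was not tested. In these bulk samples a change in the number of cells of a type and a change in RNA per cell cannot be told apart.

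Cdh6 fell. Cdh6 (K-cadherin), first known from kidney epithelium and found in parts of the embryonic nervous system, lies on chromosome 15 (13028699 to 13176407). It had 13.8, 15.9 and 13.8 FPKM in stiff gels, against 17.6, 20.9 and 23.3 FPKM in soft gels. Every stiff library lay below every soft library, and soft replicate 1 was the soft library nearest to the stiff ones. Its means were 14.5 ± 1.19 FPKM in stiff and 20.6 ± 2.84 FPKM in soft gels (SD, n = 3 each), with a limma log2 fold change at -0.47 ± 0.10 (SE; adjusted p = 0.0327). The call was lost when stiff replicate 1 (limma adjusted p = 0.120), stiff replicate 3 (0.120), soft replicate 2 (0.121) or soft replicate 3 (0.104) was left out. In these fits, in the same order, limma called 0.399%, 0.458%, 0.127% and 0.722% of all tested genes lower, against 2.68% in the main test. Leaving out each library gave Cdh6 log2 fold changes of -0.57 to -0.38. The call was also lost when limma tested all listed genes (adjusted p = 0.0563). Limma-voom over all listed genes called Cdh6 lower (log2 fold change -0.53, adjusted p = 0.0142), and it is lower in the authors' deposited table (-0.53, q = 6.42e-05). Within a library the ratio of Cdh11 to Cdh6 was 1.10, 0.930 and 1.07 in stiff gels, against 0.569, 0.494 and 0.393 in soft gels. The pair thus stood near equal levels in stiff gels, while Cdh6 was the more abundant in all 3 soft libraries.

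The other type II genes were not called. Cdh24 had 9.77, 8.39 and 9.70 FPKM in stiff gels, against 8.95, 8.10 and 6.26 FPKM in soft gels (limma adjusted p = 0.278). Cdh18 was at 2.96, 2.63 and 2.35 FPKM in stiff gels, against 2.37, 1.66 and 2.10 FPKM in soft gels (limma adjusted p = 0.208). For both genes the lowest stiff value lay within the soft range. Cdh5 (VE-cadherin), the junction cadherin of endothelium, was near the minimum, at 1.07, 1.17 and 0.692 FPKM in stiff gels, against 0.915, 1.43 and 1.37 FPKM in soft gels (limma adjusted p = 0.501). The endothelial marker Pecam1 was at or below 0.0745 FPKM in stiff and 0.134 FPKM in soft gels, and Tie1 and Esam also averaged under 1 FPKM. The endothelial list (7 of 8 listed) summed to 344 to 430 FPKM in stiff and 397 to 462 FPKM in soft gels, most of it Emcn. Limma called Kdr lower (log2 fold change -1.13, adjusted p = 0.0104), with means of 10.7 FPKM in stiff and 24.7 FPKM in soft gels. The other tested markers, none of them called, had limma log2 fold changes of 0.11 (Tek), -0.16 (Emcn) and -0.32 (Egfl7). The part of endothelial RNA in the level of Cdh5 was not tested. Cdh8, a neuronal cadherin, had 5, 3 and 2 reads in stiff gels, against 9, 19 and 22 reads in soft gels, and is called lower in the authors' deposited table (log2 fold change -2.30, q = 0.0284). It was not called without the minimum by limma (adjusted p = 0.196) or by limma-voom, the count-based form of the test, on the rebuilt reads (0.0588).

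The type I cadherins were the most abundant classical class, and 0 of the 3 tested were called by limma (1 had an unadjusted p under 0.05, and 2 of the 5 listed have a q under 0.05 in the authors' deposited table). Cdh1 (E-cadherin), the main cadherin of epithelial adherens junctions (chromosome 8, 106603350 to 106670247), stood at 60.0, 50.4 and 55.9 FPKM in stiff gels, against 64.9, 61.5 and 67.1 FPKM in soft gels. The groups did not overlap, but the gap between stiff replicate 1 and soft replicate 2 was small beside the spread within each gel. The means were 55.5 ± 4.81 FPKM in stiff and 64.5 ± 2.83 FPKM in soft gels (SD, n = 3 each), with a log2 fold change of -0.22 and a 95% interval of -0.39 to -0.05 (limma adjusted p = 0.130). In the authors' deposited table Cdh1 is lower at q = 0.0496 with a log2 fold change of -0.25. The summed epithelial markers were higher in 2 of the 3 stiff libraries than in any soft library, and their part in the level of Cdh1 was not tested.

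Cdh3 (P-cadherin), found in basal epithelial layers, had 17.5, 14.8 and 16.5 FPKM in stiff gels, against 19.5, 13.6 and 13.0 FPKM in soft gels (limma adjusted p = 0.752). Cdh2 (N-cadherin), the cadherin of neural and mesenchymal cells and of several cochlear cell types, had 12.3, 10.4 and 13.2 FPKM in stiff gels, against 13.1, 9.58 and 10.3 FPKM in soft gels (limma adjusted p = 0.642). The gels overlapped for both genes, with 95% intervals of the log2 fold change of -0.21 to 0.41 for Cdh3 and -0.15 to 0.39 for Cdh2. The ratio of Cdh1 to Cdh2 was 4.89, 4.83 and 4.24 in stiff gels, against 4.95, 6.42 and 6.53 in soft gels, so that soft replicate 1 lay beside the stiff libraries. Cdh4 (R-cadherin), under the minimum, had 0.622 to 0.655 FPKM in stiff and 0.619 to 0.639 FPKM in soft gels.

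Cdh15 (M-cadherin), known from muscle precursors and cerebellum, was under the minimum of 1 FPKM but was called lower by the 3 tests that included it. It had 9, 12 and 2 reads in stiff gels, against 26, 27 and 32 reads in soft gels, or 0.178, 0.246 and 0.0437 FPKM against 0.528, 0.531 and 0.629 FPKM. No stiff library reached the lowest soft library. Without the minimum it was called lower by limma (adjusted p = 0.0289) and by limma-voom on the rebuilt reads (log2 fold change -2.06 ± 0.51 SE, adjusted p = 0.0374), and it is lower in the authors' deposited table (q = 0.0113).

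**Figure D2:**
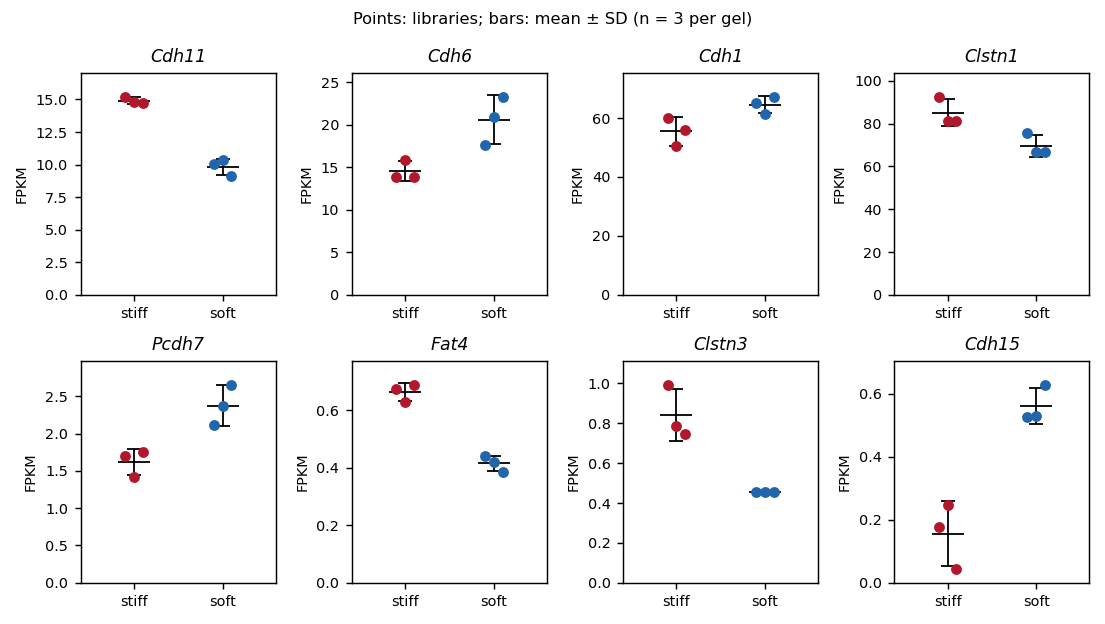
FPKM of 8 members in stiff gels (left) and soft gels (right), with 1 point per library and bars for the mean ± SD (n = 3 each); each vertical axis starts at 0. The gels do not overlap in any panel, with Cdh11, Clstn1, Fat4 and Clstn3 higher and Cdh6, Cdh1, Pcdh7 and Cdh15 lower in stiff gels.

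The clustered protocadherins were the largest class, and 0 of the 21 tested were called (limma adjusted p from 0.387 to 0.981; 0 had an unadjusted p under 0.05, and 0 of the 45 listed had a deposited q under 0.05). On log2(FPKM + 1), which makes changes of low genes smaller, their log2 fold changes ran from -0.19 to 0.15 with a median of -0.01. The 95% intervals on this scale stayed within -0.50 and 0.48. By limma-voom without the minimum some intervals reached further, such as -0.32 to 0.83 for Pcdhga2 and -0.81 to 0.27 for Pcdhb9. The summed level of the class was 71.9, 67.5 and 57.3 FPKM in stiff gels, against 61.6, 68.7 and 74.8 FPKM in soft gels, so the gels overlapped. All 45 lie on chromosome 18, in the alpha, beta and gamma clusters. The table held 22 beta and 21 gamma genes, and 2 alpha genes, Pcdha12 and Pcdhac2, with 20 and 56 reads over the 6 libraries.

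Pcdhgc3, a C-type gamma gene near the end of its cluster (37806410 to 37841873), held about as many reads as the other gamma genes together. It took 52.4%, 52.5% and 49.8% of the gamma reads in stiff gels, against 53.3%, 56.0% and 56.4% in soft gels. Its level was 23.1, 20.7 and 16.3 FPKM in stiff gels, against 19.4, 23.4 and 26.2 FPKM in soft gels (limma adjusted p = 0.468). The gels overlapped, and the spread within each gel was as large as the difference between the means. The other 20 gamma genes averaged between 0.223 and 2.25 FPKM over the 6 libraries, 10 of them at 1 FPKM or more.

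The beta genes differed in level along their cluster. The 13 genes of the first stretch, Pcdhb1 to Pcdhb13, averaged 0.0894 to 0.959 FPKM over the 6 libraries, and 0 of them reached 1 FPKM. The 9 genes of the last stretch, Pcdhb14 to Pcdhb22, averaged 0.706 to 5.33 FPKM, and 8 of them reached 1 FPKM. The exception, Pcdhb15 (0.706 FPKM), lay below Pcdhb9 (0.959 FPKM) of the first stretch. This division was chosen after the values were seen and is a description. Pcdhb17, the most abundant beta gene (37485021 to 37488290), had 5.95, 5.59 and 5.16 FPKM in stiff gels, against 5.05, 4.99 and 5.21 FPKM in soft gels (limma adjusted p = 0.451). In stiff as in soft gels 8 of the 9 genes of the last stretch averaged 1 FPKM or more, against 0 of 13 genes of the first stretch in stiff and 1 in soft gels. The division was drawn from these same libraries, so its presence in each gel is no separate support.

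**Figure D3:**
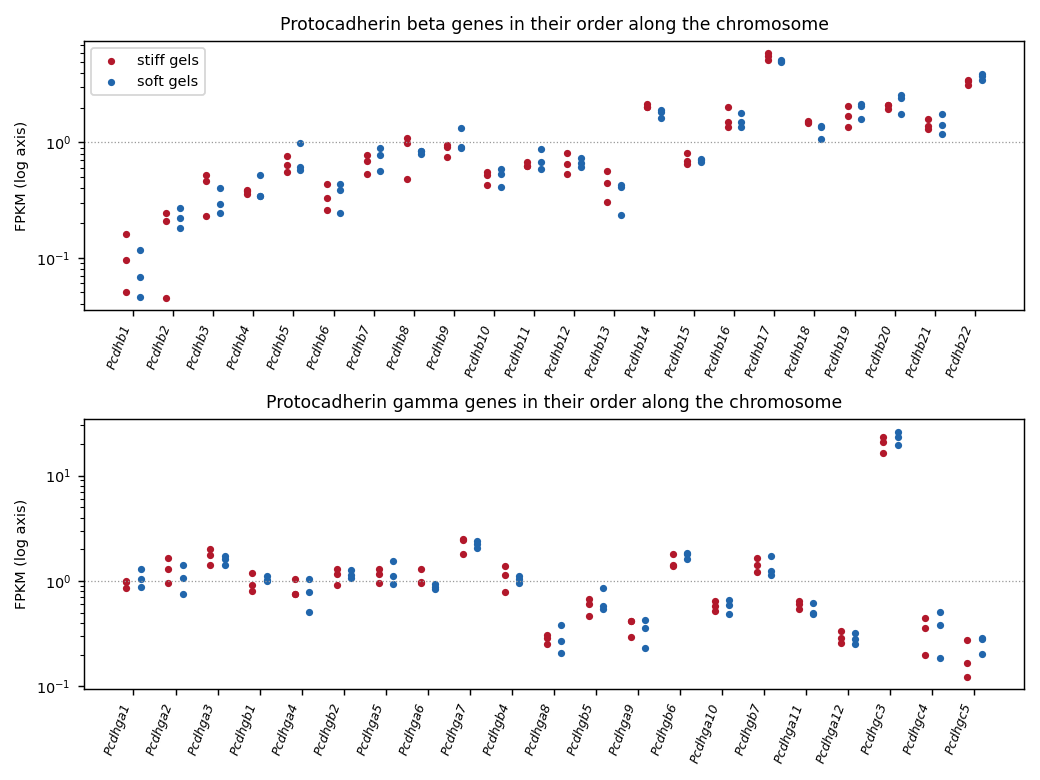
FPKM on a log axis of the 22 beta genes (upper panel) and 21 gamma genes (lower panel) in their order along chromosome 18, with 1 point per library, stiff gels left of soft gels and a dotted line at 1 FPKM. Of the genes from Pcdhb14 on, 8 of 9 average 1 FPKM or more, Pcdhb15 being the exception, Pcdhgc3 stands above all other gamma genes, and the gels overlap for all genes but Pcdhb14, Pcdhb18 and Pcdhga6, whose 3 stiff values are the higher ones.

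Single gamma and alpha genes are uncertain as separate measurements. In the GENCODE annotation each gamma gene shares 27.8% to 66.8% of its exon bases with other gamma genes, since variable first exons are spliced to common last exons, and the 2 alpha genes share 48.6% and 53.6%. The length that the deposited FPKM imply for the gamma genes was 5269.9 to 5776.4 bases, scaled so that the median gene of the table has its GENCODE exon length. How reads in the common exons were assigned is not stated in the labels. The beta genes share at most 9.7% of their exon bases with each other. Their implied lengths were 2669.3 to 5990.6 bases, for some genes well under the GENCODE exon length, such as Pcdhb14 (3896 against 8695 bases). The part of these lengths in the levels of the beta genes was not tested.

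Of the 12 non-clustered protocadherins 5 were tested and 0 called by limma, with 1 at an unadjusted p under 0.05 and 1 of the 12 at a q under 0.05 in the authors' deposited table. Pcdh7, a delta-type protocadherin, came nearest (chromosome 5, 57716145 to 58133236), with 1.70, 1.42 and 1.75 FPKM in stiff gels, against 2.11, 2.36 and 2.65 FPKM in soft gels. The groups did not overlap, and limma gave -0.36 ± 0.10 (SE) for the log2 fold change (adjusted p = 0.0638). It was called lower without soft replicate 1 (limma adjusted p = 0.0271) and by limma-voom on the rebuilt reads (log2 fold change -0.58, adjusted p = 0.0178), and it is lower in the authors' deposited table (-0.58, q = 0.000459). Pcdh18, the most abundant of the class, had 11.1, 10.6 and 11.0 FPKM in stiff gels, against 11.0, 10.2 and 11.4 FPKM in soft gels, with a 95% interval of the log2 fold change of -0.15 to 0.15 (limma adjusted p = 0.985). Pcdh17 had 9.76, 8.04 and 8.93 FPKM in stiff gels, against 9.30, 6.59 and 6.44 FPKM in soft gels, where soft replicate 1 lay among the stiff libraries. Its limma adjusted p was 0.315, and 0.0191 without soft replicate 1. Without soft replicate 1 limma called 7.29% of all tested genes higher and 6.42% lower, against 3.13% and 2.68% in the main test.

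Pcdh15 and Cdh23, which form the tip links of hair bundles and are both genes of Usher syndrome, were sparse. Pcdh15 had 106, 99 and 117 reads in stiff gels, against 85, 77 and 80 reads in soft gels, or 0.326, 0.316 and 0.398 FPKM against 0.269, 0.236 and 0.245 FPKM. Cdh23 had 2, 8 and 5 reads in stiff gels, against 9, 24 and 16 reads in soft gels. For both genes the gels did not overlap, and neither was called without the minimum (limma adjusted p = 0.246 for Pcdh15 and 0.388 for Cdh23) or by limma-voom (0.167 and 0.137). Of the 14 genes chosen as their partners in the hair bundle 11 were listed and 5 tested. At an unadjusted p under 0.05 limma had 1 higher and 2 lower, against 21.7% of all tested genes in either direction. It called 1 higher and 0 lower, beside 3.13% and 2.68% of all tested genes. The gene that rose was Ush1c, encoding harmonin, which binds the tail of cadherin 23. Its level was 37.9 ± 2.20 FPKM in stiff and 24.9 ± 3.57 FPKM in soft gels (SD, n = 3 each; log2 fold change 0.59, limma adjusted p = 0.0147). Whrn (whirlin), a scaffold of hair bundles, had 2.79, 2.40 and 2.51 FPKM in stiff gels, against 3.08, 4.28 and 4.32 FPKM in soft gels. The gels did not overlap, and Whrn was lower by limma-voom without the minimum (adjusted p = 0.0409), as it is in the authors' deposited table (log2 fold change -0.63, q = 0.00377) but was not called by limma (adjusted p = 0.0554). Cdh13 (T-cadherin), the remaining cadherin outside the classical types, had 16 reads over the stiff and 23 over the soft libraries.

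Of the 9 planar polarity cadherins 5 were tested and 0 called by limma, with 0 at an unadjusted p under 0.05 and 1 of the 9 at a q under 0.05 in the authors' deposited table. Fat1, the most abundant of them, had 26.4, 20.1 and 21.1 FPKM in stiff gels, against 22.9, 27.8 and 31.1 FPKM in soft gels. Dchs1, the ligand of Fat4, had 15.7, 15.0 and 13.2 FPKM in stiff gels, against 13.1, 16.6 and 18.7 FPKM in soft gels. Celsr1, a core planar polarity receptor of the cochlear epithelium, had 15.1, 10.9 and 11.6 FPKM in stiff gels, against 12.1, 10.6 and 8.88 FPKM in soft gels. The gels overlapped for these 3 genes (limma adjusted p = 0.271, 0.623 and 0.375), and of the soft libraries, replicate 1 had the lowest Fat1 and Dchs1 and the highest Celsr1. The 95% intervals of the log2 fold change were -0.55 to 0.02 for Fat1, -0.40 to 0.15 for Dchs1 and -0.07 to 0.53 for Celsr1. Celsr2 had 4.43, 3.20 and 3.71 FPKM in stiff gels, against 3.53, 3.94 and 3.41 FPKM in soft gels (limma adjusted p = 0.883). Dchs2 had 2.38, 2.41 and 1.97 FPKM in stiff gels, against 2.02, 2.85 and 2.75 FPKM in soft gels (limma adjusted p = 0.624). Both overlapped between the gels, and Fat2 (at most 0.124 FPKM) and Celsr3 (at most 0.0313 FPKM) were near 0 in every library.

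Fat4, the receptor of Dchs1 (chromosome 3, 38884667 to 39011992), was under the minimum but separated the gels. It had 202, 181 and 186 reads in stiff gels, against 128, 126 and 116 reads in soft gels, or 0.675, 0.627 and 0.688 FPKM against 0.440, 0.419 and 0.386 FPKM. Every stiff library lay well above every soft library. Without the minimum it was called higher by limma (adjusted p = 0.0464) and by limma-voom (log2 fold change 0.65 ± 0.13 SE, adjusted p = 0.0152), and it is higher in the authors' deposited table (q = 0.0039). Fat3 had 191, 128 and 162 reads in stiff gels, against 172, 107 and 120 reads in soft gels (limma without the minimum, adjusted p = 0.533). The difference between the responses of Fat4 and of Dchs1 or Fat3 was not tested.

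Of 16 genes chosen as planar polarity partners, all tested, limma had 3 higher and 1 lower at an unadjusted p under 0.05. The share of all tested genes was 21.7% in either direction. Limma called 1 higher and 0 lower, beside 3.13% and 2.68% of all tested genes. At a q under 0.05, reached by 8.12% of all genes, the authors' deposited table has the same 1 gene. This was Ankrd6, the counterpart of fly Diego, with 18.6 ± 2.10 FPKM in stiff and 11.8 ± 2.23 FPKM in soft gels (SD, n = 3 each; log2 fold change 0.63, limma adjusted p = 0.0283). Ptk7, the most abundant partner, was at 56.9 ± 1.33 FPKM in stiff and 58.8 ± 0.626 FPKM in soft gels (SD, n = 3 each; limma adjusted p = 0.698).

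The calsyntenins held 2 tested genes, and 0 were called by limma, with 1 at an unadjusted p under 0.05 and 1 of the 3 listed at a q under 0.05 in the authors' deposited table. Clstn1 (chromosome 4, 149585111 to 149648899), a kinesin adaptor, stood at 92.5, 81.5 and 81.4 FPKM in stiff gels, against 75.7, 66.6 and 66.8 FPKM in soft gels. The groups did not overlap, and limma gave 0.28 ± 0.08 (SE) for the log2 fold change (adjusted p = 0.0679). It was called higher without soft replicate 1 (limma adjusted p = 0.0161), and it is higher in the authors' deposited table (log2 fold change 0.26, q = 0.0321). Without soft replicate 1 limma called 7.29% of all tested genes higher, against 3.13% in the main test. Clstn3 was under the minimum, with 72, 55 and 49 reads in stiff gels, against 32, 33 and 33 reads in soft gels. It was called higher by limma without the minimum (adjusted p = 0.0366) but not by limma-voom (0.0598), and the authors' deposited table gives q = 0.0569. The calsyntenins together made up 25.9%, 25.8% and 26.3% of the superfamily's summed FPKM in stiff gels, against 23.8%, 21.6% and 19.9% in soft gels, without overlap. Clstn2 overlapped between the gels, at 11.4, 10.4 and 12.7 FPKM in stiff gels, against 12.9, 12.0 and 8.40 FPKM in soft gels (limma adjusted p = 0.858).

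**Figure D4:**
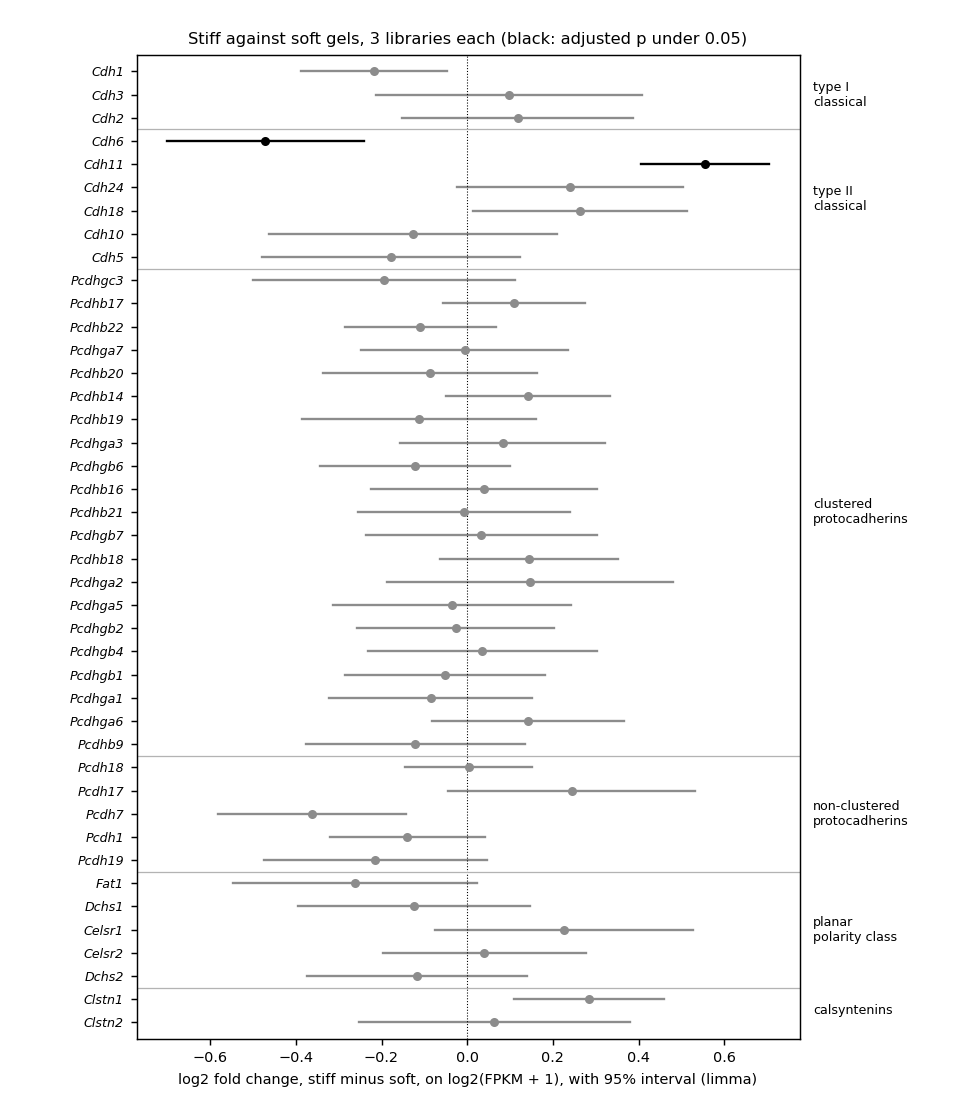
Log2 fold change of the 42 tested members, taken as stiff minus soft with log2(FPKM + 1) as the measure, with 95% intervals from limma; black marks an adjusted p under 0.05. Cdh11 lies at 0.56 and Cdh6 at -0.47, and the clustered protocadherins lie between -0.19 and 0.15.

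Over all 86 members, the fit without the minimum called 3 higher (3.49%; 1.92% of all listed genes) and 1 lower (1.16%; 1.47% of all). Limma-voom without the minimum called 2 higher (2.33%; 2.96% of all) and 3 lower (3.49%; 3.53% of all). The authors' deposited table has 3 higher, Cdh11, Clstn1 and Fat4 (3.49%; 3.44% of all genes), and 5 lower, Cdh1, Cdh6, Cdh8, Cdh15 and Pcdh7 (5.81%; 4.68% of all). The gels did not overlap for 9 members that were higher (10.5%; 14.5% of all listed genes) and 11 that were lower (12.8%; 10.3% of all). Besides the genes described above and the clustered Pcdhb14, Pcdhb18 and Pcdhga6, these were Pcdh20 on the higher side and Cdh20, Pcdh1, Pcdh8, Pcdh9 and Pcdh19 on the lower side. The counts are small, and these shares lay near the background of the table.

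Of 13 tested genes of the cadherin-catenin complex and its nectin neighbours limma called 1 higher and 1 lower, beside 3.13% and 2.68% of all tested genes. Both were nectins, adhesion proteins that help to place cadherin junctions. Nectin4 was at 6.46 ± 0.924 FPKM in stiff and 4.47 ± 0.529 FPKM in soft gels (SD, n = 3 each; log2 fold change 0.44, limma adjusted p = 0.0488). Nectin1 was at 3.09 ± 0.325 FPKM in stiff and 5.17 ± 0.853 FPKM in soft gels (SD, n = 3 each; log2 fold change -0.59, limma adjusted p = 0.0202). Limma called no catenin, while limma-voom and the authors' deposited table have delta-catenin, Ctnnd2, as lower. Ctnnd2 had 7.46, 6.02 and 7.45 FPKM in stiff gels, against 10.4, 9.69 and 7.83 FPKM in soft gels (limma adjusted p = 0.0946, limma-voom without the minimum 0.0420, q = 0.00707 in the authors' deposited table). Vcl (vinculin), which binds alpha-catenin, was likewise lower by limma-voom (adjusted p = 0.0409), as it is in the authors' deposited table (q = 0.00343) but not by limma (0.0686). For both genes every stiff value lay below every soft value. Ctnnb1 (beta-catenin) was at 343 ± 7.33 FPKM in stiff and 313 ± 14.8 FPKM in soft gels (SD, n = 3 each; limma adjusted p = 0.278).

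Of 8 tested transcription factors known to switch cadherins limma called 0 higher (1 at an unadjusted p under 0.05) and 1 lower, and 2 are lower at a q under 0.05 in the authors' deposited table, Zeb2 and Snai1. Zeb2, a repressor of Cdh1, had 6.46, 7.18 and 5.24 FPKM in stiff gels, against 7.99, 9.63 and 10.6 FPKM in soft gels (log2 fold change -0.52, limma adjusted p = 0.0441). Every stiff library lay below every soft library. Snai1 (Snail), another repressor of Cdh1, had 6.06, 5.60 and 3.33 FPKM in stiff gels, against 6.05, 10.1 and 9.37 FPKM in soft gels (limma adjusted p = 0.101; log2 fold change -0.79, q = 0.00966 in the authors' deposited table). Soft replicate 1 lay among the stiff libraries. Twist1, the most abundant factor of the list, was at 18.5 ± 1.61 FPKM in stiff and 20.0 ± 1.65 FPKM in soft gels (SD, n = 3 each; limma adjusted p = 0.509). Of 8 tested proteases that cut cadherins or their stubs limma called 0, beside 5.81% of all tested genes. It had 1 at an unadjusted p under 0.05, against 21.7% of all tested genes. The authors' deposited table has 0 of the proteases at a q under 0.05, against 8.12% of all genes. The gamma-secretase subunit gene Ncstn was at 81.0 ± 3.79 FPKM in stiff and 74.9 ± 2.51 FPKM in soft gels (SD, n = 3 each). Of 11 tested regulators of the clustered protocadherins, such as the cohesin gene Rad21, limma called 0 and 0 had an unadjusted p under 0.05. The authors' deposited table has 0 of the regulators at a q under 0.05. The shares over all genes are those given for the proteases. Without the minimum the calls of Nectin4, Zeb2 and Ankrd6 were lost (limma adjusted p = 0.0820, 0.0763 and 0.0530), and Zeb2 was also lost with the replicate number as a block. Limma called 0 of the partner genes without stiff replicate 1 or stiff replicate 3, and Ush1c alone without soft replicate 2 or soft replicate 3. In these fits, in the same order, limma called 0.951%, 1.21%, 0.552% and 1.77% of all tested genes, against 5.81% in the main test.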

How the data were processed

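TruSeq RNA libraries of the 3 stiff and 3 soft gel samples were read from 1 deposited table, whose expression columns hold FPKM by the authors (the unit was read from the values). The table also holds the authors' base mean, a signal of reads scaled for depth, their log2 fold changes and standard errors, a test statistic (score), and p-values and q-values deposited beside them. TopHat2 2.1.1, mm10 and DESeq2 are named per the submitters' processing notes, while neither counting tool nor gene annotation is stated. The prep kit does not mark strand, so reads of overlapping antisense genes cannot be told apart.

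Samples were grouped by their labels. The main test was limma 3.58.1 (R 4.3.3) with a mean-variance trend on log2(FPKM + 1), over all 11780 genes with a mean of at least 1 FPKM in either gel, with Benjamini-Hochberg adjustment over those genes and a threshold of 0.05. The pseudocount of 1 makes log2 fold changes of low genes smaller than the change itself. Whole reads were rebuilt from FPKM and base mean, and 99.98% of values came out within 0.05 reads of a whole number. These reads gave the depths and a limma-voom test, which called 875 genes against 685 by the main test. Benjamini-Hochberg values recomputed from the deposited p-values differed from the deposited q-values by at most 1.89e-06. Scripts were tested on simulated data.

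The members and all lists of partner and marker genes were chosen with earlier results of these data known. Genes named were the members called by the main test, by limma without the filter or at a deposited q under 0.05, the 2 most abundant members of each class, 12 members known from the inner ear or as cell type markers, and the called and the most abundant genes of each partner list; other members, such as Cdh18, Celsr2 and Pcdh20, were named after their values were seen. Promoter windows came from RefSeq (GRCm38.p6, the assembly of mm10) and gene coordinates and exons from its annotation and GENCODE. Alternatives tried were other filters, another pseudocount, median-ratio scaling, limma-voom, the authors' deposited q-values, a replicate block and leaving out each library.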

Additional observations from a re-analysis of the deposited data

How the results depend on the processing

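The 1 higher and 1 lower member of the main test became 3 higher and 1 lower without the filter on low values, 1 higher and 2 lower with limma-voom on the rebuilt reads, and 2 higher and 3 lower with limma-voom without the filter, a setting chosen after seeing the data. The authors' deposited q-values gave 3 higher and 5 lower. Leaving out each library in turn gave 1 to 3 higher and 0 to 2 lower. Cdh11 was among the higher members in every one of these fits. Cdh6 was not among the lower ones by limma without the filter or without stiff replicates 1 or 3 or soft replicates 2 or 3. It was among them by limma-voom with or without the filter and by the authors' deposited q-values. Among the partner genes, 3 were higher and 2 lower in the main test. Without the filter the counts were 1 higher and 1 lower, 5 were lower with limma-voom with or without the filter, 6 were lower by the authors' deposited q-values, and leaving out each library gave 0 to 4 higher and 0 to 6 lower. Deviations of same-numbered libraries from their gel's mean correlated at 0.00873, 0.219 and -0.211. With 3 libraries per gel these values cannot settle whether the replicate numbers pair the samples. With the number as a replicate block, 2 members were higher (Cdh11 and Clstn1), 1 partner gene was lower, and calls over all genes numbered 710. The cause was not tested for any of these shifts. Over all genes, calls numbered 685 in the main test, 65 without soft replicate 2 and 1615 without soft replicate 1. Over the named members, 215 log2 fold changes under an alternative kept direction and side of the threshold, 10 passed it, 7 no longer did and 10 changed sign, all of uncalled genes near 0. Leaving out each library gave -0.11 to 0.17 for Clstn2 (main 0.06; -0.01 without stiff replicate 3) and -0.0049 to 0.27 for Cdh3 (main 0.10). Pcdh18 (main 0.0032) was at -0.0231 with median-ratio scaling, -0.0247 and -0.0248 by limma-voom with and without the filter, -0.0264 in the authors' deposited table and between -0.0355 and 0.0368 leaving out each library. Members with few reads, such as Cdh8, Cdh23 and Cdh13, are limited by depth.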
